A study of Homo sapiens with 6 samples.

Results

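The genes described here are 10 of the 20345 genes in the deposited table. They encode 5 ATG8-family proteins (GABARAP, GABARAPL1, GABARAPL2, MAP1LC3A and MAP1LC3B) and 5 autophagy receptors (SQSTM1, NBR1, OPTN, CALCOCO2 and TAX1BP1), and their rows were taken by HGNC symbol. The set was chosen by its change between the same LRRC8A shRNA and control libraries, which was known when it was put together, so the fold changes and calls of these 10 genes are given as a description, with no p-value, and support nothing by themselves. RNA-seq was made from SW 1990 cells, a human pancreatic cancer line, carrying either an shRNA against LRRC8A or a non-targeting shRNA, with 3 libraries in each group. The hairpins were delivered in the lentiviral vector pLKO.1 and the transduced cells were kept under puromycin as stable lines, so cells of both groups carry a vector and were drug selected. LRRC8A is the subunit that anion channels opened by cell swelling cannot do without. The labels name 1 LRRC8A hairpin and put all 6 libraries in 1 batch. No untransduced cells were included. Loss of LRRC8A therefore cannot be told apart from other effects of that hairpin, nor a rise with it from a fall with the control hairpin. Whether the 3 libraries of a group came from separate transductions is not given in the sources used here, and if they came from the same stable line the spread is that between cultures.

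Autophagy wraps cytoplasm in a double membrane, the autophagosome, and delivers it to the lysosome. ATG8 proteins are ubiquitin-like proteins that an ATG4 protease trims to a C-terminal glycine, after which ATG7, ATG3 and the ATG12-ATG5-ATG16L1 complex couple that glycine to phosphatidylethanolamine in the growing membrane. Receptors such as SQSTM1 (p62) bind ubiquitinated cargo and, through a short LC3-interacting region, the lipidated ATG8 proteins, so cargo and receptor are degraded together. SQSTM1 also binds KEAP1, the inhibitor of the transcription factor NRF2, and is itself a transcriptional target of NRF2. Pancreatic ductal carcinomas are known for a high basal level of autophagy. mRNA levels do not measure autophagic flux, and the proteins were not measured in the files used here.

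The coding sequences show what sets the ATG8 genes apart at the site of lipidation. Below are the last codons of each principal transcript (GENCODE 29, GRCh38), 5′ to 3′ up to and including the stop codon, with the codon of the lipidated glycine in capitals. It is codon 116 in the GABARAP genes and codon 120 in the LC3 genes, and MAP1LC3B alone of the 5 has 5 codons after it where each of the others has 1.
GABARAP: agtgacgaaagtgtctacGGTctgtga
GABARAPL1: agtgatgagagtgtctatGGGaaatga
GABARAPL2: agcggagagaacacttttGGCttctga
MAP1LC3A: gcctcccaggaaaccttcGGCttctga
MAP1LC3B: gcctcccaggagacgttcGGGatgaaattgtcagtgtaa

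The coding sequence of GABARAP was 76.8% identical to that of GABARAPL1, 62.4% to that of GABARAPL2 and 53.8% to that of MAP1LC3B, and MAP1LC3A and MAP1LC3B were 73.5% identical. On the receptor side, the counterpart is the LC3-interacting region. The lines below give its coding bases in SQSTM1, NBR1 and OPTN with the codons of the aromatic residue and of the hydrophobic residue 3 places on in capitals (codons 338 and 341, 732 and 735, and 178 and 181, in that order of genes).
SQSTM1: gatgatgacTGGacccatCTGtcttca
NBR1: tcagaggatTACatcatcATCctgcct
OPTN: gaagattccTTTgttgaaATTaggatg

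The libraries held 37052641 to 42937612 counts. LRRC8A itself had 1782, 1411 and 1556 counts in LRRC8A shRNA libraries and 3012, 2725 and 2667 in control libraries (log2 fold change -0.92, SE 0.06, edgeR adjusted p = 1.46e-08). All 6 epithelial markers were expressed, summing to 10070 to 11190 CPM in LRRC8A shRNA libraries and 12650 to 13390 CPM in control libraries (CPM, counts relative to TMM-scaled library size). Leukocyte markers summed to 2.67 to 3.96 CPM in LRRC8A shRNA libraries and 2.90 to 3.67 CPM in control libraries, fibroblast markers to 3.93 to 4.31 CPM in LRRC8A shRNA libraries and 3.12 to 4.56 CPM in control libraries. Endothelial markers summed to at most 0.348 CPM in LRRC8A shRNA libraries and 0.432 CPM in control libraries. CD3E, COL1A2, DCN, KDR, CELA3A, INS and GCG had no count in any library. The sum of the acinar and endocrine markers, of which PRSS1 alone reached 10 counts in a library, was 9.56 to 13.5 CPM in LRRC8A shRNA libraries and 14.8 to 17.7 CPM in control libraries. In bulk RNA, fewer cells of a kind and less RNA per cell cannot be told apart.

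GABARAP and SQSTM1 rose in LRRC8A shRNA cells, by 1.29-fold and 1.22-fold, and no member fell. Of the 10 genes, 9 passed the filter on low counts, and 2 of those 9 were called higher (edgeR, Benjamini-Hochberg adjusted p under 0.05 over 13551 tested genes). Of all tested genes 4.35% were called, and 1.77% of all tested genes were called higher, which for a set chosen on this contrast is given only as the background. The 3 values of the LRRC8A shRNA group lay above all 3 control values for 5 of the 9 genes, against 11.4% of tested genes. The median log2 fold change of the 9 was 0.08, that of all tested genes 0.00, and 8 of the 9 were above 0, as were 50.2% of tested genes.

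**Figure D1:**
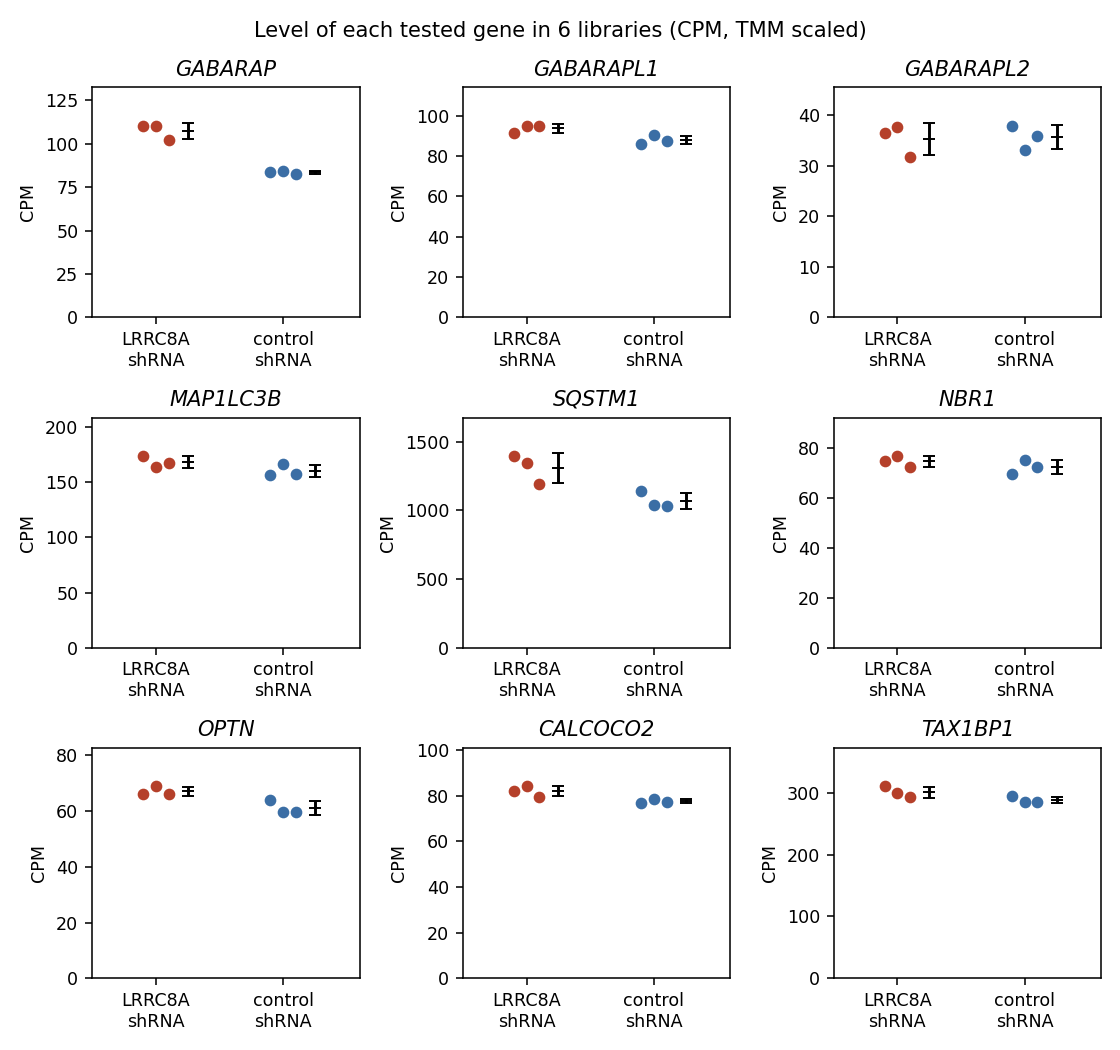
Level of each of the 9 tested genes in every library (y axis, CPM from 0), with LRRC8A shRNA libraries left of control libraries; the black marks are the mean and SD of 3 libraries. The groups stand apart most clearly for GABARAP (102 to 111 CPM against 82.7 to 84.6 CPM), while those of GABARAPL2 overlap.

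GABARAP (ENSG00000170296; GRCh38 chromosome 17, 7240014 to 7242770, minus strand) takes its name from binding the GABA type A receptor and acts late in autophagosome formation and in the recruitment of ULK1 and FLCN-FNIP complexes to membranes. It had 4804, 4132 and 3831 counts in LRRC8A shRNA libraries and 3104, 3125 and 3077 in control libraries. Scaled to depth these were 110, 111 and 102 CPM in LRRC8A shRNA libraries and 83.7, 84.6 and 82.7 CPM in control libraries. The lowest LRRC8A shRNA library thus stood above the highest control library, and the control libraries lay close together. The means were 107.7 ± 4.62 CPM in LRRC8A shRNA cells and 83.7 ± 0.935 CPM in control cells (SD, n = 3 each). The log2 fold change was 0.36 with an SE of 0.05 and a 95% interval of 0.27 to 0.46, larger than that of 95.3% of tested genes. GABARAP was called whichever of the 6 libraries was left out, with log2 fold changes of 0.34 to 0.40. These fits reuse libraries of the contrast on which the set was chosen, so they too are only a description.

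Its closest relative, GABARAPL1 (chromosome 12, 10212458 to 10223130, plus strand), is often induced by FOXO transcription factors in starved cells. It had 91.4, 95.1 and 94.9 CPM in LRRC8A shRNA libraries and 86.2, 90.3 and 87.5 CPM in control libraries. The groups did not overlap, but the gap was small and the gene was not called (log2 fold change 0.09, SE 0.05, 95% interval -0.00 to 0.19). GABARAPL2 (GATE-16; chromosome 16, 75566351 to 75577881, plus strand), first known as a factor of transport within the Golgi, had 36.5, 37.7 and 31.7 CPM in LRRC8A shRNA libraries and 38.0, 33.3 and 36.0 CPM in control libraries. These values overlapped (log2 fold change -0.02, SE 0.07, 95% interval -0.17 to 0.13).

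MAP1LC3B (chromosome 16, 87383995 to 87404779, plus strand) encodes LC3B, whose lipidated form is the usual marker of autophagosomes. It had 174, 164 and 168 CPM in LRRC8A shRNA libraries and 157, 166 and 158 CPM in control libraries. Control replicate 2 lay within the range of the LRRC8A shRNA libraries, and the gene was not called (log2 fold change 0.07, SE 0.04, 95% interval -0.02 to 0.16). MAP1LC3A (chromosome 20, 34546854 to 34560345, plus strand), the other LC3 gene of the set, was hardly detected. It had 0, 5 and 3 counts in LRRC8A shRNA libraries and 0 in each control library, where a count of 0 allows up to 0.0799 to 0.0810 CPM, so it was not tested and no fold is given. Of the ATG8 genes outside the set, MAP1LC3C had no count in any library. MAP1LC3B2, a near-copy of MAP1LC3B, had 88, 71 and 90 counts in LRRC8A shRNA libraries and 76, 77 and 60 in control libraries (edgeR adjusted p = 0.807). MAP1LC3B2 transcripts share 10.0% of the 50-base words of MAP1LC3B, so reads can be split between them.

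**Figure D2:**
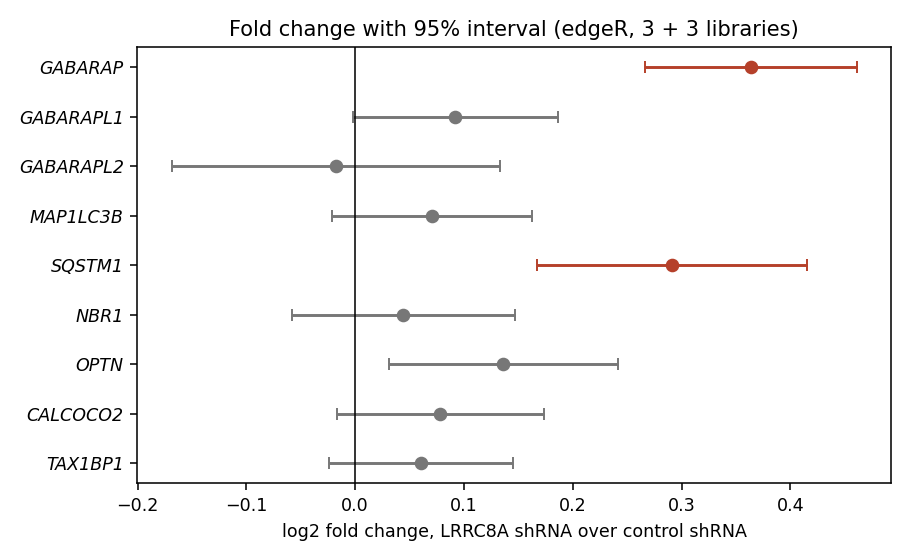
Log2 fold change of each tested gene (x axis, LRRC8A shRNA over control shRNA) with its 95% interval, from the fit over all genes with 3 libraries per group; red marks the called genes. The intervals of GABARAP (0.27 to 0.46), SQSTM1 (0.17 to 0.41) and OPTN (0.03 to 0.24) lie above 0, and the last was not called after adjustment over all genes.

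SQSTM1 (ENSG00000161011; chromosome 5, 179806398 to 179838078, plus strand) gathers ubiquitinated proteins into condensates for autophagy. It had 60886, 50341 and 44523 counts in LRRC8A shRNA libraries and 42185, 38530 and 38423 in control libraries. Scaled to depth these were 1396, 1347 and 1189 CPM in LRRC8A shRNA libraries and 1138, 1043 and 1033 CPM in control libraries. The groups did not overlap, but LRRC8A shRNA replicate 3 and control replicate 1 lay close to each other. The means were 1311 ± 108 CPM in LRRC8A shRNA cells and 1071 ± 57.8 CPM in control cells (SD, n = 3 each). On the log2 scale the difference was 0.29 (SE 0.06, 95% interval 0.17 to 0.41). The call depended on single libraries. SQSTM1 was not called without LRRC8A shRNA replicate 1 or 2, or without control replicate 2 or 3, with log2 fold changes of 0.24, 0.27, 0.27 and 0.27. It was also not called when limma was run on the deposited FPKM values (log2 fold change 0.33 on the log2(FPKM + 1) scale).

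OPTN (chromosome 10, 13099449 to 13138308, plus strand) encodes optineurin, a receptor for damaged mitochondria and bacteria that TBK1 phosphorylates. It had 66.2, 68.8 and 66.1 CPM in LRRC8A shRNA libraries and 63.8, 59.7 and 59.5 CPM in control libraries. The groups did not overlap and the log2 fold change was 0.14 (SE 0.05, 95% interval 0.03 to 0.24), which was not called. CALCOCO2 (chromosome 17, 48830988 to 48866522, plus strand) encodes NDP52, a receptor for bacteria and mitochondria. It had 82.2, 84.1 and 79.6 CPM in LRRC8A shRNA libraries and 77.0, 78.7 and 77.2 CPM in control libraries, again without overlap and not called (log2 fold change 0.08, SE 0.05). In TAX1BP1 (chromosome 7, 27739331 to 27844564, plus strand), a relative of CALCOCO2 that serves aggregate clearance and ferritin turnover, the levels were 310, 299 and 293 CPM in LRRC8A shRNA libraries and 294, 285 and 285 CPM in control libraries. They overlapped by 1 library on each side (log2 fold change 0.06, SE 0.04). NBR1 (chromosome 17, 43170481 to 43211689, plus strand) encodes a receptor that works with SQSTM1 in cargo condensates. It had 75.0, 76.9 and 72.6 CPM in LRRC8A shRNA libraries and 69.7, 75.4 and 72.6 CPM in control libraries, and these overlapped (log2 fold change 0.04, SE 0.05).

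Levels between genes were compared on the deposited FPKM scale, which divides by length. The length was not a fixed value per gene. For SQSTM1, LRRC8A shRNA replicates 1 and 2 had 1396 and 1347 CPM but 538 and 567 FPKM. Differences in FPKM between libraries can therefore hold a part that is not in the counts. SQSTM1 was the most abundant receptor mRNA by a wide margin, with 538, 567 and 488 FPKM in LRRC8A shRNA libraries and 476, 391 and 401 FPKM in control libraries. By mean FPKM it stood at place 90 among the 20345 genes in LRRC8A shRNA cells and at place 127 in control cells. TAX1BP1 came next with 96.1 ± 3.64 FPKM in LRRC8A shRNA cells and 90.4 ± 1.45 FPKM in control cells (SD, n = 3 each). CALCOCO2 had 21.1 ± 0.0597 FPKM in LRRC8A shRNA cells and 19.5 ± 0.301 FPKM in control cells. OPTN had 18.3 ± 0.465 FPKM in LRRC8A shRNA cells and 16.3 ± 0.649 FPKM in control cells. NBR1 was lowest of the receptors, with 13.9 to 14.2 FPKM in LRRC8A shRNA libraries and 13.5 to 14.1 FPKM in control libraries. In neither group did the 3 values of any of the 10 genes overlap those of its neighbour in the order. SQSTM1 made up 78.0% ± 1.14 of the summed receptor FPKM in LRRC8A shRNA cells and 75.0% ± 1.74 in control cells (SD, n = 3 each). The receptor sum was 118 FPKM higher in LRRC8A shRNA cells than in control cells, of which SQSTM1 gave 109 FPKM.

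**Figure D3:**
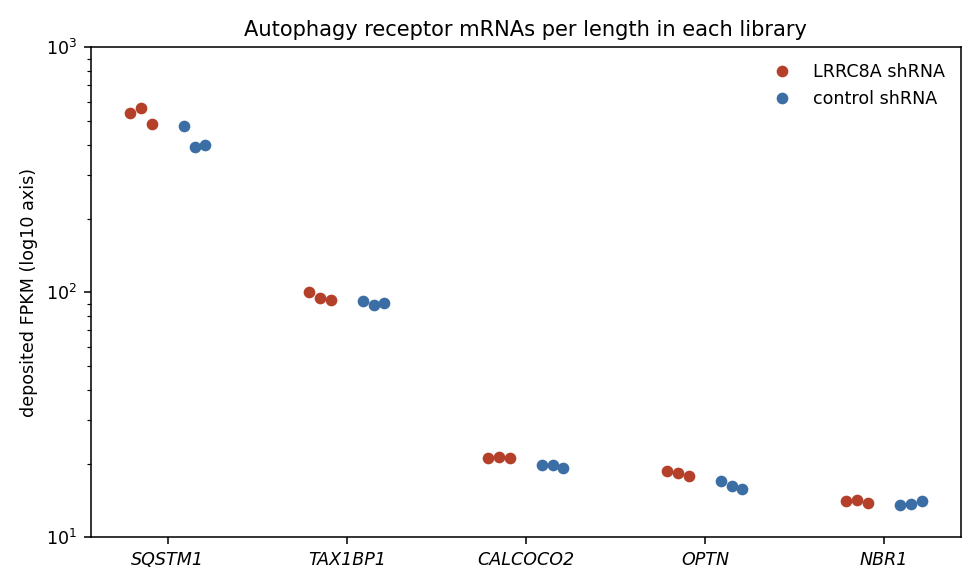
Deposited FPKM of the 5 receptor genes in each library (log10 y axis), LRRC8A shRNA left of control. SQSTM1 (391 to 567 FPKM over all 6 libraries) lies far above TAX1BP1 (89.0 to 100 FPKM), and NBR1 is lowest.

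Within the ATG8 family, the order of the most abundant mRNAs on the FPKM scale differed between the groups. GABARAP had 64.5, 65.8 and 59.5 FPKM in LRRC8A shRNA libraries and 48.8, 49.0 and 46.5 FPKM in control libraries. MAP1LC3B had 57.7, 53.5 and 55.0 FPKM in LRRC8A shRNA libraries and 50.8, 53.8 and 51.3 FPKM in control libraries. GABARAP was thus above MAP1LC3B in all 3 LRRC8A shRNA libraries and below it in all 3 control libraries. The ratio of GABARAP to MAP1LC3B was 1.12, 1.23 and 1.08 in LRRC8A shRNA libraries and 0.961, 0.912 and 0.907 in control libraries. The ratio of GABARAP to GABARAPL1 was 1.78, 1.73 and 1.58 in LRRC8A shRNA libraries and 1.40, 1.39 and 1.34 in control libraries. Both ratios stood apart between the groups. The order, the ratios and the share of GABARAP given below all hold the same GABARAP difference and are not separate results. In CPM, which does not divide by length, MAP1LC3B was above GABARAP in both groups. GABARAPL1 had 37.4 ± 0.921 FPKM in LRRC8A shRNA cells and 35.0 ± 0.258 FPKM in control cells, and GABARAPL2 had 29.9 ± 2.81 FPKM in LRRC8A shRNA cells and 30.0 ± 1.93 FPKM in control cells (SD, n = 3 each). GABARAP supplied 34.0% ± 0.731 of the summed ATG8 FPKM in LRRC8A shRNA cells and 29.2% ± 0.468 in control cells. The sum was 186.0 ± 6.12 FPKM in LRRC8A shRNA cells and 165.1 ± 2.19 FPKM in control cells, and of the difference of 20.8 FPKM GABARAP gave 15.2 FPKM. The GABARAP subfamily held 69.6%, 71.7% and 69.2% of the sum in LRRC8A shRNA libraries and 69.5%, 67.6% and 68.4% in control libraries, so the shares of the subfamilies overlapped between the groups.

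**Figure D4:**
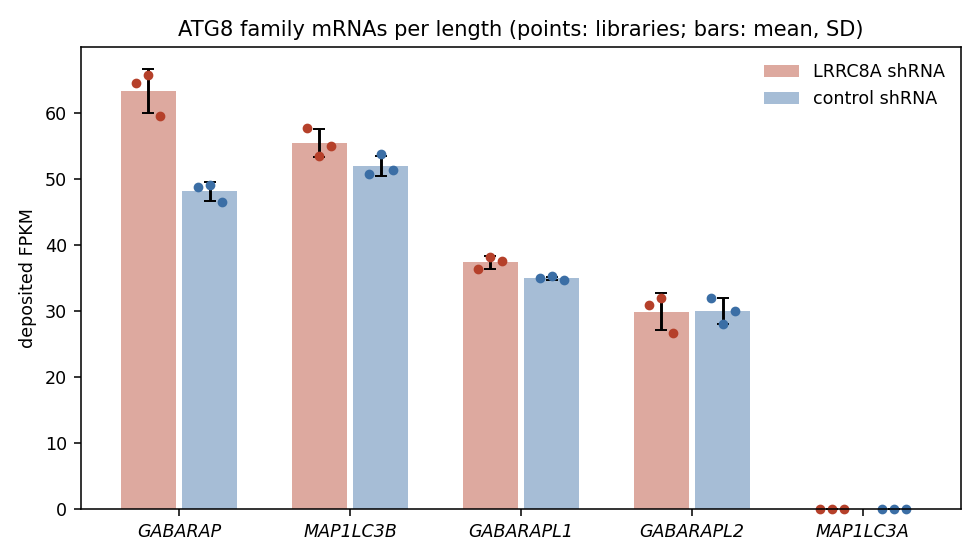
Deposited FPKM of the ATG8 genes (y axis from 0) with LRRC8A shRNA left of control; points are libraries, and bars with whiskers are the mean and SD of 3. GABARAP stands above MAP1LC3B in LRRC8A shRNA cells (63.3 against 55.4 FPKM) and below it in control cells (48.1 against 52.0 FPKM), and MAP1LC3A is near 0.

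The 7-base word GTGTCAC, picked out in an earlier reading of these data because genes that rose hold it often, was present in the annotated 3′ UTRs of 32.2% of the 236 called higher genes and of 10.3% of the 12499 genes not called. Of the 10 genes, GABARAP and MAP1LC3B hold it, each once in the principal transcript, at base 261 and base 819 of the 3′ UTR. The sites are shown with the word in capitals (transcript strand, 5′ to 3′, GENCODE 29).
GABARAP: ttgtcagtctGTGTCACatccagtgat
MAP1LC3B: cagtgtaccaGTGTCACtctggagtac

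The sites differ on both sides of the word, and only the GABARAP mRNA was called. SQSTM1 and the other 7 genes do not hold the word in an annotated coding transcript. The part of the word in the level of GABARAP was not tested. MRNIP lies opposite SQSTM1 and shares 50.7% of the 50-base words of the principal SQSTM1 transcript. It had 2177, 1869 and 1908 counts in LRRC8A shRNA libraries and 1768, 1387 and 1701 in control libraries (log2 fold change 0.20, edgeR adjusted p = 0.143), far fewer than SQSTM1. The library kit was stranded, but how strand was treated in counting is unknown here, and reads of the overlap could stand in either gene. A protein-coding gene on the strand of GABARAP that shares 40.6% of its 50-base words had no count in any library. An unclassified transcript on the opposite strand shares 30.6% and was not analysed here. CCDC3, opposite OPTN with 147 shared exon bases, had 422, 462 and 445 counts in LRRC8A shRNA libraries and 565, 591 and 556 in control libraries, the other way from OPTN. It was called lower (log2 fold change -0.45, edgeR adjusted p = 0.0133). FBXO31 lies opposite MAP1LC3B (150 shared exon bases, log2 fold change -0.16, edgeR adjusted p = 0.146). JAZF1 lies opposite TAX1BP1 (415 bases, -0.09, edgeR adjusted p = 0.816), and MGAT4B opposite SQSTM1 (105 bases, 0.02, edgeR adjusted p = 0.838).

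The genes whose course over the 6 libraries was most like that of GABARAP were DEDD2, ABHD4, PAIP1, C1orf115 and ZBTB4, with root mean square distances of 0.0285 to 0.0380 on the log2 CPM scale after centring each gene (7985 genes with a mean of at least 20 CPM). PAIP1, which binds the poly(A)-binding protein, had 130.1 CPM in LRRC8A shRNA cells and 99.7 CPM in control cells. Likeness was taken over the same 6 libraries as the calls, so genes near a called gene share much of its group difference. That these 5 genes were all called higher follows largely from this choice. Of the 5, 3 have a GTGTCAC in an annotated 3′ UTR, which 32.2% of called higher genes have. Nearest to SQSTM1 were SRXN1, JMJD6, PHYH, FAM174B and LAMB2, at distances of 0.0343 to 0.0470, of which 1 (SRXN1) has the word. SRXN1, the sulfiredoxin gene and a well-known NRF2 target, had 303 CPM in LRRC8A shRNA cells and 240.5 CPM in control cells. SQSTM1, also called and chosen on the same contrast, was at place 42 in the order of likeness to GABARAP (distance 0.0679). The next of the other genes of the set was OPTN, at place 385.

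Of 96 other genes of the pathway, grouped by role, 95 were tested, 3 rose and 0 fell (3.16% called, against 4.35% of all tested genes; edgeR). The lists were drawn up with earlier results of these data known. Their median log2 fold change was 0.04, 62 of the 95 were above 0, and 22 had an unadjusted p under 0.05 (23.2% of them, against 18.3% of all tested genes). DESeq2 called 5 of the 95, and it called 660 genes over the whole table, against 590 for edgeR. The genes that make and attach lipidated ATG8 proteins held no called member among 11 (edgeR; 2 had an unadjusted p under 0.05). The conjugating enzyme gene ATG3 had a log2 fold change of 0.13 (edgeR adjusted p = 0.179) and the activating enzyme gene ATG7 one of -0.15 (edgeR adjusted p = 0.232). None of the 5 ULK complex genes was called, and 1, the kinase gene ULK1, had an unadjusted p under 0.05. ULK1 had 13.1, 13.4 and 14.6 CPM in LRRC8A shRNA libraries and 10.2, 12.6 and 10.3 CPM in control libraries (log2 fold change 0.31, SE 0.10, edgeR adjusted p = 0.0933), and ATG101 had a log2 fold change of -0.05. In the class III PI3K complex, which makes the lipid that marks the nascent membrane, 0 of 7 were called by edgeR and 0 had an unadjusted p under 0.05, with NRBF2 at 0.12 and PIK3R4 at -0.06 on the log2 scale. Of 10 genes of ATG9, lipid transfer and WIPI proteins 0 were called by edgeR (1 had an unadjusted p under 0.05), with VMP1 at -0.09 and WIPI1 at 0.20.

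Among 18 other receptors and adaptors, for mitochondria, the endoplasmic reticulum and ferritin, 0 were called by edgeR and 4 had an unadjusted p under 0.05. The adaptor gene TOLLIP had a log2 fold change of 0.13 (edgeR adjusted p = 0.151) and the mitochondrial receptor gene BCL2L13 one of -0.12 (edgeR adjusted p = 0.183). Of 7 genes for kinases and ubiquitin signalling at receptors, 0 were called and 0 had an unadjusted p under 0.05. The mitochondrial deubiquitinase gene USP30 had a log2 fold change of 0.09 (edgeR adjusted p = 0.664) and the kinase gene IKBKE one of -0.14 (edgeR adjusted p = 0.703). In autophagosome-lysosome fusion 0 of 15 were called by edgeR, and 8 of the 15 log2 fold changes were above 0. An unadjusted edgeR p under 0.05 was found for 7 of them (46.7%, against 18.3% of all tested genes). The 2 genes with the smallest adjusted p are given here. The tethering subunit gene VPS33A had 43.8, 44.8 and 45.0 CPM in LRRC8A shRNA libraries and 40.5, 36.6 and 38.8 CPM in control libraries (log2 fold change 0.20, edgeR adjusted p = 0.0560). STX17, the SNARE of the autophagosome, went the other way with 31.2, 29.1 and 28.4 CPM in LRRC8A shRNA libraries and 34.9, 33.1 and 34.4 CPM in control libraries (log2 fold change -0.21, edgeR adjusted p = 0.0689).

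**Figure D5:**
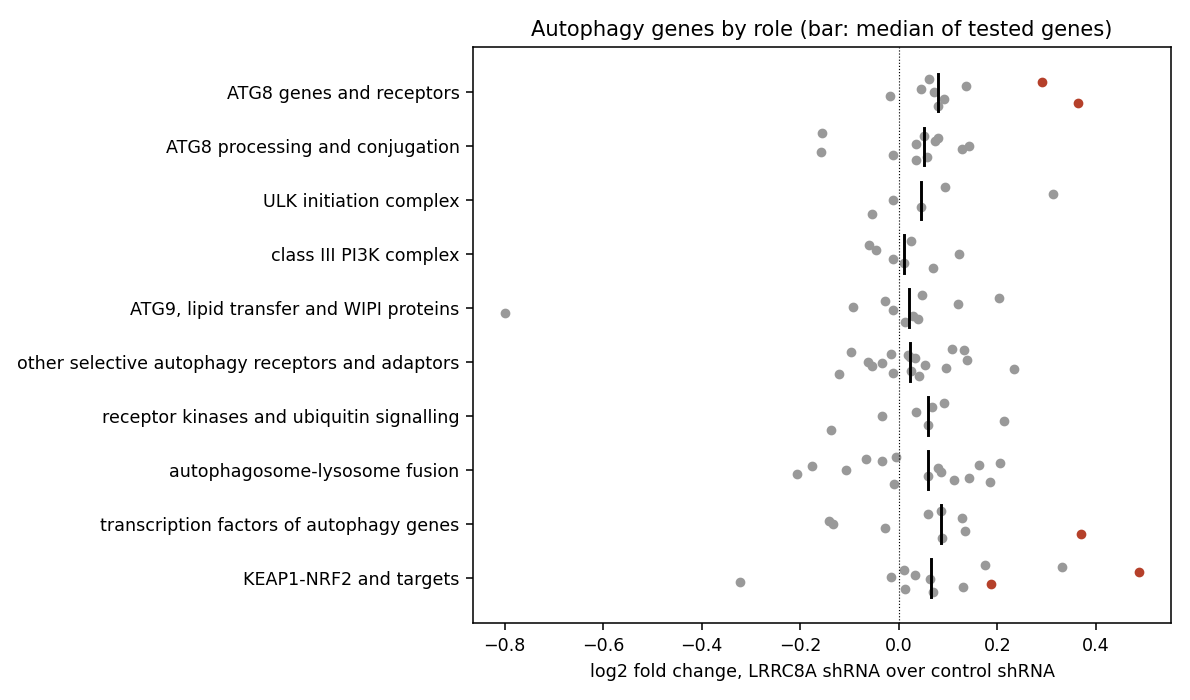
Log2 fold change (x axis, LRRC8A shRNA over control shRNA) of the tested genes of each role (MAP1LC3B2 not drawn), 1 point per gene, spread vertically only for legibility; red marks genes called over all tested genes, and the black bar is the median. The top row holds the 9 tested ATG8 and receptor genes. Below it red points occur only among the transcription factors and their regulators (1 gene, the regulator FNIP1) and the KEAP1-NRF2 genes (2 genes). The low-count gene ATG9B lies at -0.80 and was not called.

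Of 9 genes for transcription factors of autophagy genes and their regulators, FNIP1 rose (11.1% called by edgeR, against 4.35% of all tested genes). An unadjusted edgeR p under 0.05 was found for 2 of the 9 (22.2%, against 18.3% of all tested genes). FNIP1 forms with FLCN the GTPase-activating complex that controls the MiT transcription factors TFEB and TFE3, and GABARAP is known to bind this complex. FNIP1 had 64.6, 59.9 and 62.8 CPM in LRRC8A shRNA libraries and 51.8, 47.7 and 45.4 CPM in control libraries. The groups stood well apart (log2 fold change 0.37, SE 0.06, edgeR adjusted p = 0.000775), and FNIP1 stayed past the threshold whichever of the 6 libraries was left out. Its 3′ UTR does not hold the word GTGTCAC. The other 8 genes were not called. Of these, TFE3 had a log2 fold change of 0.13 (edgeR adjusted p = 0.169), FLCN 0.09 (0.393), FNIP2 0.13 (0.515), ZKSCAN3 0.09 (0.770) and TFEB 0.06 (0.945). FOXO3 had one of -0.13 (edgeR adjusted p = 0.278), MITF one of -0.14 (0.661) and FOXO1 one of -0.03 (0.866).

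Of 12 genes of KEAP1, NRF2 and its targets, 2 rose and 0 fell (16.7% called by edgeR, against 4.35% of all tested genes). An unadjusted edgeR p under 0.05 was found for 5 of them (41.7%, against 18.3% of all tested genes). This list too was drawn up with earlier results of these data known. GSR, the glutathione reductase gene, had 282, 280.0 and 256 CPM in LRRC8A shRNA libraries and 240, 247 and 233 CPM in control libraries (log2 fold change 0.19, SE 0.04, edgeR adjusted p = 0.0217). OSGIN1, a stress-induced growth inhibitor gene, had 53.8, 63.9 and 54.9 CPM in LRRC8A shRNA libraries and 46.7, 40.4 and 35.9 CPM in control libraries (log2 fold change 0.49, SE 0.10, edgeR adjusted p = 0.0428). When each of the 6 libraries was left out in turn, GSR passed 1 time and OSGIN1 3 times, with edgeR adjusted p-values of up to 0.112 for GSR (without LRRC8A shRNA replicate 1) and 0.174 for OSGIN1 (without control replicate 2). The other 10 genes were not called. TXNRD1, the thioredoxin reductase gene, had a log2 fold change of 0.18 (edgeR adjusted p = 0.0667), SRXN1 one of 0.33 (0.107) and GCLM one of 0.13 (0.146). HMOX1, the haem oxygenase gene, had one of -0.32 (edgeR adjusted p = 0.479). KEAP1 was at 0.06 on the log2 scale, and NQO1 (0.03), GCLC (0.01), SLC7A11 (0.01) and NFE2L2, which encodes NRF2 (-0.02), were close to 0.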

How the data were processed

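Reads were processed by the authors before deposit; the submitters' processing notes name fastp 0.23.2, HISAT2 2.2.1 and StringTie 2.2.3 and the builds GRCh38 and mm10, without roles. The deposited table gave raw counts per gene (library totals 37052641 to 42937612), FPKM values and TPM values, the last used only as an alternative scale. The counting program is not given in the sources used here. The members and lists were chosen with earlier results of these data known.

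Counts were filtered with filterByExpr, scaled by TMM factors and compared by robust quasi-likelihood testing (edgeR 4.0.16 in R 4.3.3), with Benjamini-Hochberg adjustment over 13551 genes. Limma 3.58.1 and DESeq2 1.42.0 served as alternatives. An exact permutation test of 3 against 3 libraries cannot give a p under 0.1. Fold changes are LRRC8A shRNA over control. Named genes were LRRC8A, the members, genes past the threshold in each list (otherwise the 2 with the smallest adjusted p) and, for called members, the 5 genes with the closest profiles; the uncalled genes of the transcription factor and KEAP1-NRF2 lists (1 of the KEAP1-NRF2 genes is not reported here), ATG9B and overlapping genes were named after their values were seen. Positions are from GENCODE 29. Counting error alone sets the limit given for a count of 0.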

Additional observations from a re-analysis of the deposited data

How the results depend on the processing

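Nothing in the labels says that same-numbered libraries share a culture or day, so the main fit did not pair them. Deviations of same-numbered libraries from their group means correlated at 0.0277, -0.0890 and 0.00510, and not every library correlated best with its own number. With 3 libraries per group these values cannot decide whether the numbers pair the samples. With the replicate block, 671 genes were called and the same number of members, 2; pathway calls were 5. Leaving out 1 library gave 246 to 504 called genes, 1 to 2 called members and 1 to 6 pathway genes. DESeq2 called 660 genes and the fit with no filter on low counts 692 genes, and each called 5 pathway genes. Limma on log2(FPKM + 1) called 157 genes (1 member, 1 pathway gene), with a pseudocount of 0.1 154 genes (1 member, 1 pathway gene), and without the FPKM filter 18 genes (0 members, 0 pathway genes). The cause of these differences was not tested. With 1 library left out, the log2 fold change of GABARAPL2 ran from -0.0692 to 0.0534, above 0 without LRRC8A shRNA replicate 3 (0.0534) and without control replicate 1 (0.0262). No other member changed direction in any alternative run. GABARAP was not called only by limma without the FPKM filter, at 0.39; SQSTM1 was not called in 7 of 13 alternatives. GABARAP held place 3 by level in LRRC8A shRNA cells and 4 in control cells also on TPM and on TMM-rescaled FPKM. These scales multiply all values of a library by the same factor, so they could not change the order within it. The order depends on the division by length. In CPM, MAP1LC3B was above GABARAP in LRRC8A shRNA cells (168.3 against 107.7) and in control cells (160.3 against 83.7). At this depth MAP1LC3A is at the limit of detection.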

Other observations

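The promoter windows of 9 of the 10 genes were found in RefSeq (GRCh38.p14), from 250 bases before to 50 after the start site nearest to that of the principal transcript. The palindrome CACGTG, the core of the element bound by TFEB and TFE3, was in 0 of the 9 windows and in 7.26% of 35116 such windows of all genes. The longer form TCACGTGA, which contains it, was in 0 and in 0.980%. TGACNNNGC, the core of the antioxidant response element bound by NRF2, searched on both strands, was in 2 of the 9 windows, those of MAP1LC3B and CALCOCO2, and in 13.3% of all windows. These matches describe the letters of these windows only.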
